A study of Mus musculus with 3 samples.

Results

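Lysosomes are the acidic compartments in which cells break down what they engulf or discard. Soluble acid hydrolases cut proteins, glycans, lipids and nucleic acids there, and heavily glycosylated membrane proteins line and protect the compartment. Most of the soluble enzymes reach it through a mannose 6-phosphate tag, and the transcription factor TFEB is known to drive many of their genes together. In the fetal liver, macrophages digest the nuclei that erythroblasts expel, and DNase II is the lysosomal enzyme that degrades the DNA of those nuclei.

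Described here are 41 mouse genes for lysosomal hydrolases and membrane proteins, chosen by name from what their products are known to do, with earlier results of these data known. The array's annotation gave 38 of them a probe, and 37 had a value in all 3 arrays, out of 13697 genes measured in the series. No probe was named for Cd68, Npc1 or Arsb in the annotation used here, and the Acp2 probe had no value in any array. Of the 37, 33 lay above the median probe of an array in at least 1 array. Ctsk, Ids, Neu1 and Sgsh lay below the median in all 3.

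The study measured messenger RNA on CodeLink single-colour arrays, from the livers of mouse embryos taken at E14.5. A wild-type, a DNase II-deficient and a double-deficient genotype were compared, the last lacking both DNase II and IFN-IR, which binds type I interferon. Both mutants lack DNase II per the labels, so the receptor is the only labelled difference between them. Each genotype had 1 array, and neither the strain nor the number of embryos behind an array is stated in the labels. With no replicates, every difference below is a value without a replicate check and carries no test, and the number of arrays limits the precision.

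Values are the authors' normalised intensities on a linear scale, in units in which the median probe of an array was 0.958, 0.959 and 0.963. Arrays are given throughout in the order wild-type, DNase II-deficient, double-deficient. The genotypes, and so every direction below, rest on the labels. The probe for Dnase2a, the gene of DNase II, read 40.4, 48.6 and 39.7, and its place relative to the deleted part is not stated in the labels. The probes for the interferon receptor genes Ifnar1 and Ifnar2 read 3.60, 4.66 and 3.17, and 0.574, 0.485 and 0.483. The liver markers Afp and Ttr and the erythroid markers Hemgn and Slc4a1 were well above the array median in every array, as the labelled tissue would have. In whole tissue, a change in the number of cells of a type and a change in the RNA per cell cannot be told apart.

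Promoter sequences show what several of these genes share apart from their function. RefSeq windows of 300 bases, from 250 before to 50 after the start of the gene on build GRCm38.p6, were found for 36 of the 41 genes. The windows were searched on both strands for CACGTG, the core of the element that TFEB binds, for TCACGTGA, which contains it, and for the full CLEAR element, in which TCACGTGA has a G before it and a C after it. CACGTG was in the window of 12 of the 36 genes (33.3%), against 8.09% of 27025 genes with a window. TCACGTGA was in 4 of 36 (11.1%), against 1.12%, and the full element in 0 of 36, against 0.37%. The genes with CACGTG were Ctsa, Ctsd, Ctsl, Lamp1, Gaa, Gla, Glb1, Naglu, Lgmn, Mcoln1, Arsa and Sgsh. These shares are a description of the letters in the windows.

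The stretches below show CACGTG or TCACGTGA in capitals, 5′ to 3′ on the strand of the gene, for the genes with the longer match and for Lamp1, which had 4 copies of the core. All lie before the start of the gene. Ctsa had TCACGTGA 13 bases before its start and again just after it, and is not printed.
Ctsd (chr7:142387899-142387946, minus strand): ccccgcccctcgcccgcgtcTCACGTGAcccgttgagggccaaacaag
Mcoln1 (chr8:3500453-3500500, plus strand): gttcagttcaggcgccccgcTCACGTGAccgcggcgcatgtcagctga
Gla (chrX:134601173-134601253, minus strand): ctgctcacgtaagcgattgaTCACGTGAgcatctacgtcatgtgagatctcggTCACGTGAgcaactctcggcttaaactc
Lamp1 (chr8:13159080-13159160, plus strand): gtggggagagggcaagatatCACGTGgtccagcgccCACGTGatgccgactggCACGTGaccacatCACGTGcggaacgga

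Because the arrays differ in the interferon receptor, the windows were also searched for the core of the interferon-stimulated response element (GAAA, any 2 bases, GAAA), bound by IRF and STAT complexes, and for TTCNNNGAA, the site of STAT dimers. The response element core was in 1 of 36 windows (2.78%), that of Lamp1, against 3.99% of all genes. TTCNNNGAA was in 2 of 36 (5.56%), those of Ctsc and Arsa, against 9.55%. A match of each is shown in capitals because Ctsc is the gene with the largest difference below and Lamp1 the bearer of the core copies above.
Ctsc (chr7:88277835-88277877, plus strand): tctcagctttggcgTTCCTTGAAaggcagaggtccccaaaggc
Lamp1 (chr8:13159006-13159055, plus strand, match on the other strand): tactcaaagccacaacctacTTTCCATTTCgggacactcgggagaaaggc

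The first comparison asks how lysosomal genes stand without DNase II, the enzyme of that compartment. Most of them were modestly higher in the DNase II-deficient-labelled array than in wild-type. Of the 33 genes compared, 27 were higher by any amount and 6 lower, whereas 34.3% of the 8383 genes compared across the array were higher and 65.7% lower. Their median log2 difference was 0.53, against -0.21 over all genes compared. Over all 37 measured genes, with no level filter, the median was 0.51, against -0.04 over all genes measured. At 2-fold, 5 genes were higher, namely Ctsc, Npc2, Lamp2, Hexa and Ctsz, where 7.67% of all genes compared were. Only Acp5 was at least 2-fold lower, where 6.17% of all genes were. Most differences were therefore under 2-fold. At 1.5-fold, a threshold added after the values were seen, 15 of 33 genes were higher and 1 lower, against 13.3% and 20.2% of all genes. The plot of levels shows every gene in the 3 arrays.

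**Figure D1:**
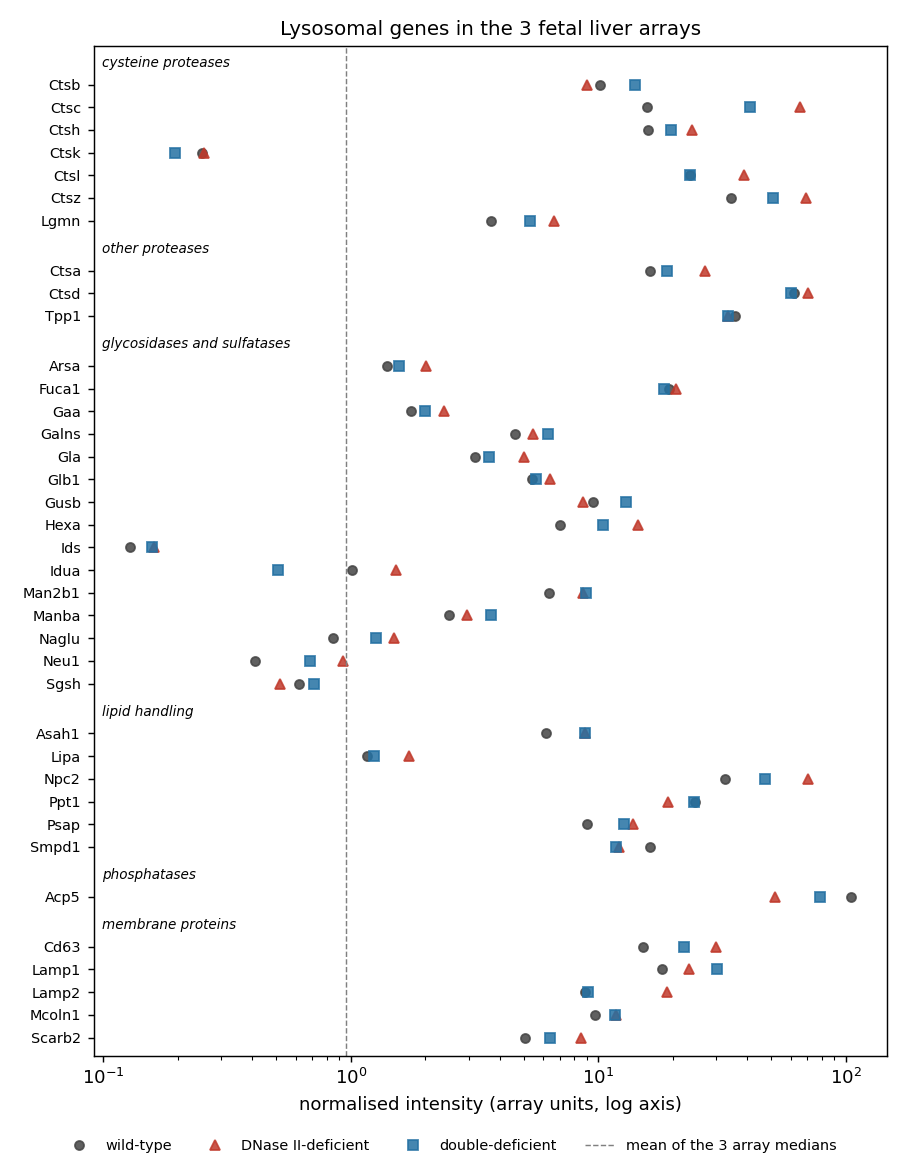
Normalised intensity (log axis, array units) of each of the 37 measured lysosomal genes in the wild-type (circle), DNase II-deficient (triangle) and double-deficient (square) arrays, 1 array each, grouped by role, with the array median of about 0.96 dashed. For most genes the triangle lies to the right of the circle, with Acp5 the widest exception, at 105 in wild-type and 51.8 in the DNase II-deficient-labelled array. Positions of different genes depend on their probes and are not to be compared with each other.

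The cysteine proteases of the lysosome, papain-like cathepsins and legumain, held the widest difference. Ctsc, the dipeptidyl peptidase that activates the granule proteases of neutrophils and mast cells, read 15.8, 65.5 and 41.2. It was lowest in wild-type, 4.14-fold higher in the DNase II-deficient-labelled array and still 2.61-fold higher in the double-deficient array. That first difference ranked 214 from the highest among the 8383 genes compared.

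Ctsz, a carboxypeptidase, read 34.5, 69.5 and 50.8, with the double-deficient array between the others. Lgmn, the asparagine-specific protease legumain that trims other lysosomal enzymes to their mature form, followed the same order at 3.70, 6.62 and 5.30. Ctsh, an aminopeptidase, did so too, at 15.95, 24.1 and 19.7. In these 4 genes, then, the DNase II-deficient-labelled array was highest and wild-type lowest.

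Ctsl, a broad endopeptidase, differed in that the double-deficient array equalled wild-type, at 23.4, 38.9 and 23.4. Ctsb, another abundant cathepsin of macrophages, did not follow, at 10.1, 9.05 and 14.1, with the double-deficient array the highest. The sign of its difference between the DNase II-deficient-labelled array and wild-type depended on the scaling, from -0.16 to 0.09 on the log2 scale. Ctsk, the collagen-degrading cathepsin of osteoclasts, was dim in all arrays, at 0.250, 0.256 and 0.195. Of the 6 cysteine protease genes compared, 5 were higher than wild-type in the DNase II-deficient-labelled array, with a median log2 difference of 0.78.

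The other proteases differed less. Ctsd, the main aspartic protease of lysosomes, read 62.1, 70.6 and 60.2, a span of less than 1.2-fold as deposited. Tpp1, which removes tripeptides from protein ends, was nearly level as deposited, at 35.7, 33.4 and 33.4. Between the first 2 arrays, the log2 difference ran with the scaling from 0.18 to 0.50 for Ctsd and from -0.10 to 0.20 for Tpp1. Ctsa, the carboxypeptidase that also stabilises beta-galactosidase and neuraminidase, read 16.3, 26.9 and 19.0 on its highest-reading probe. A dimmer Ctsa probe went the other way, at 2.78, 2.26 and 1.51, and another was below the floor of 0.162, 0.159 and 0.163 in every array. The Ctsa direction therefore depends on which probe is read.

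Enzymes that take apart glycans and glycosaminoglycans formed the largest group, and 11 of the 12 compared were higher than wild-type in the DNase II-deficient-labelled array, by a median of 0.45 on the log2 scale. Hexa, the alpha subunit of beta-hexosaminidase A, which degrades the ganglioside GM2, read 7.0, 14.53 and 10.5 and was 2.08-fold higher than wild-type in the DNase II-deficient-labelled array. Gla, the alpha-galactosidase of globotriaosylceramide, read 3.18, 5.02 and 3.63. Naglu, an enzyme of heparan sulfate breakdown, was close to the array median in wild-type and read 0.844, 1.495 and 1.26. These 3 genes were ordered alike, with the double-deficient array in the middle.

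Smaller differences in that order belonged to Gaa, the glycogen-degrading alpha-glucosidase, at 1.75, 2.38 and 2.004. Arsa, the sulfatase of sulfatide, read 1.39, 2.02 and 1.57. Glb1, the beta-galactosidase, read 5.39, 6.36 and 5.60. In each of these the double-deficient array was within 1.15-fold of wild-type.

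A further set had its highest value in the double-deficient array. Manba, the beta-mannosidase, read 2.49, 2.96 and 3.70. Man2b1, the alpha-mannosidase, read 6.35, 8.66 and 8.90, and which mutant was higher changed with the scaling, the log2 difference between them running from -0.11 to 0.04. Galns, a sulfatase of keratan sulfate, read 4.62, 5.44 and 6.25 on the chosen probe. The other Galns probe read 3.22, 6.23 and 4.79, so both were above wild-type in both mutant arrays but they disagreed on which mutant was higher. Gusb, the beta-glucuronidase, read 9.57, 8.71 and 12.9, and its difference between the first 2 arrays changed sign with the scaling, from -0.14 to 0.12.

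Idua, the iduronidase of dermatan and heparan sulfate, stood apart by its low value in the double-deficient array, at 1.01, 1.52 and 0.508. It was 2.99-fold lower there than in the DNase II-deficient-labelled array. The wild-type and double-deficient values lie near or under the array median, and with the floor raised to the array median that log2 difference of -1.58 shrank to -0.66. Fuca1, which removes fucose, was nearly level as deposited, at 19.3, 20.6 and 18.4. Its log2 difference between the DNase II-deficient-labelled array and wild-type ran from 0.09 to 0.38 with the scaling.

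The dim glycosidase genes add little. Neu1, the sialidase that Ctsa protects, read 0.410, 0.931 and 0.685, 2.27-fold higher than wild-type in the DNase II-deficient-labelled array but under the median of every array, and so is not in the counts. Sgsh, the heparan sulfamidase, read 0.618, 0.518 and 0.712 on its brighter probe, and the other was below the floor. Ids, the iduronate sulfatase, read 0.128, 0.160 and 0.157, below the floor in 2 arrays and just above it in the other.

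Among the genes for lipid handling, Npc2, the soluble protein that helps cholesterol leave the lysosome, had the widest difference, at 32.7, 70.6 and 47.1. It was 2.16-fold higher than wild-type in the DNase II-deficient-labelled array, with the double-deficient array between them. Psap, the precursor of the saposins that assist sphingolipid breakdown, read 8.98, 13.8 and 12.7. Asah1, the acid ceramidase, read 6.17, 8.82 and 8.85, so both mutant arrays were alike and above wild-type. Lipa, the acid lipase of cholesteryl esters, read 1.16, 1.72 and 1.24, with the double-deficient array near wild-type.

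Smpd1 and Ppt1 went against the group. Smpd1, the acid sphingomyelinase, was highest in wild-type, at 16.2, 12.1 and 11.8. Ppt1, the thioesterase that removes palmitate from proteins, was lowest in the DNase II-deficient-labelled array, at 24.6, 19.2 and 24.5. How far that array lay below wild-type depended on the scaling. The log2 difference ran from -0.42 to -0.15 for Smpd1 and from -0.35 to -0.07 for Ppt1. Of the 6 lipid genes compared, 4 were higher and 2 lower than wild-type in the DNase II-deficient-labelled array.

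Acp5, the tartrate-resistant acid phosphatase of osteoclasts and some macrophages, was the only phosphatase gene with values. It read 105, 51.8 and 79.1, highest in wild-type and 2.03-fold lower in the DNase II-deficient-labelled array, with the double-deficient array between. Its log2 difference of -1.02 sits at the 2-fold threshold and was -0.78 after quantile normalisation and -0.70 after cyclic loess, so it was no longer 2-fold lower under either, nor under 75th percentile scaling.

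All 5 measured membrane protein genes were higher than wild-type in both mutant arrays. Lamp2, a major glycoprotein of the lysosomal membrane that also takes part in autophagy, read 8.83, 18.9 and 9.11. It was high in the DNase II-deficient-labelled array alone, 2.14-fold above wild-type and 2.08-fold above the double-deficient array. Lamp1, the other major membrane glycoprotein, was ordered differently, at 18.2, 23.2 and 30.2, highest in the double-deficient array. The tetraspanin gene Cd63 read 15.2, 30.0 and 22.2, just under the threshold at 1.97-fold above wild-type, as Ctsz at 2.02-fold was just over it.

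Scarb2, encoding LIMP-2, the receptor that brings glucocerebrosidase to lysosomes, read 5.07, 8.54 and 6.39. Mcoln1, the calcium channel of the lysosomal membrane, read 9.73, 11.8 and 11.7 and so was nearly the same in both mutants. The plot of differences sets the distance from wild-type in both mutant arrays side by side.

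**Figure D2:**
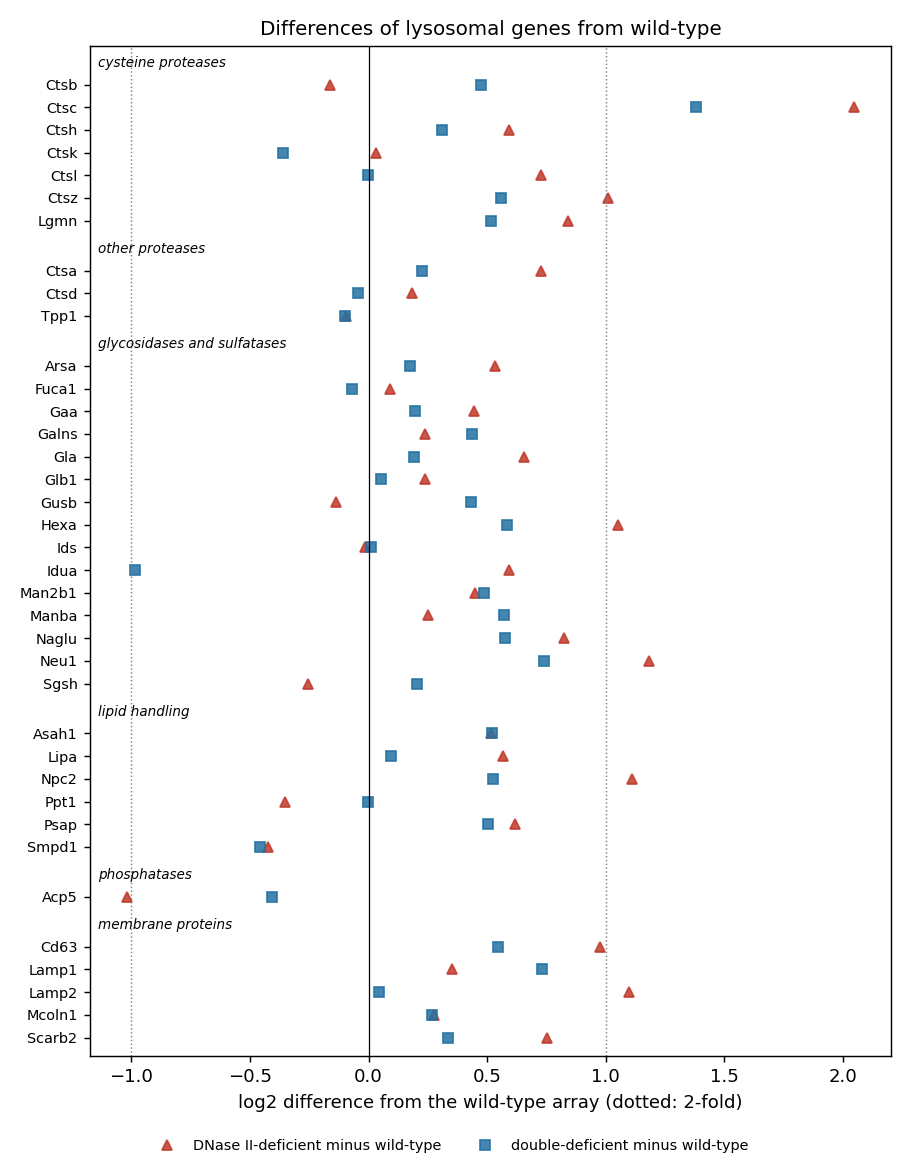
Log2 difference from the wild-type array for each of the 37 measured lysosomal genes, with DNase II-deficient as triangles and double-deficient as squares, grouped by role. Dotted lines mark 2-fold. Ctsc is the gene beyond 2-fold in both mutants, at 2.05 and 1.38. Several genes have their symbols on opposite sides of 0, with the widest gap for Idua, at 0.59 and -0.99. The wild-type array is common to both symbols.

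The second comparison sets the mutant arrays, whose labels differ in the interferon receptor, against each other. With 1 array each, a difference between them cannot be assigned to the receptor. Lysosomal genes were mostly somewhat lower in the double-deficient-labelled array. Of 33 genes compared, 24 were lower and 9 higher by any amount, with a median log2 difference of -0.25, while 39.1% of the 8303 genes compared were lower, 60.9% were higher and the median over all of them was 0.11. Only Lamp2 and Idua were at least 2-fold lower, where 4.85% of all genes were. No gene was 2-fold higher, where 3.11% of all genes were. At 1.5-fold, 4 were lower (Lamp2, Idua, Ctsl and Ctsc) and 2 higher (Ctsb and Acp5), against 10.02% and 12.5% of all genes.

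The third comparison sets the array labelled as lacking both the nuclease and the receptor against wild-type. Of 33 genes compared, 25 were higher and 8 lower in the double-deficient-labelled array, with a median log2 difference of 0.31. Over the 8158 genes compared the median was -0.08, with 38.9% higher and 61.1% lower. Ctsc was at least 2-fold higher, where 2.05% of all genes were, and no gene was 2-fold lower, where 0.735% were. At 1.5-fold, Ctsc and Lamp1 were higher and Idua lower, against 4.89% and 4.85% of all genes.

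These comparisons share arrays and are not independent of each other. Read as levels, the double-deficient array lay between the others for 20 of the 33 genes (60.6%), close to the 56.4% of 8462 genes above the median in at least 1 array. It lay above both for 7 genes and below both for 6. Several of these places rest on differences near 0, as for Ctsd, Ctsl and Fuca1 below both and Man2b1 and Asah1 above both. After the other scalings the array lay between for 23 to 25 of the same 33 genes, above both for 6 and below both for 2 to 4, while the share between over all genes was 50.3% to 52.1%. Among the 27 genes that were higher in the DNase II-deficient-labelled array than in wild-type, it lay between for 18 (66.7%), against 51.3% of all 2906 such genes. The plot of all genes compared shows where the lysosomal genes fall in each comparison.

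**Figure D3:**
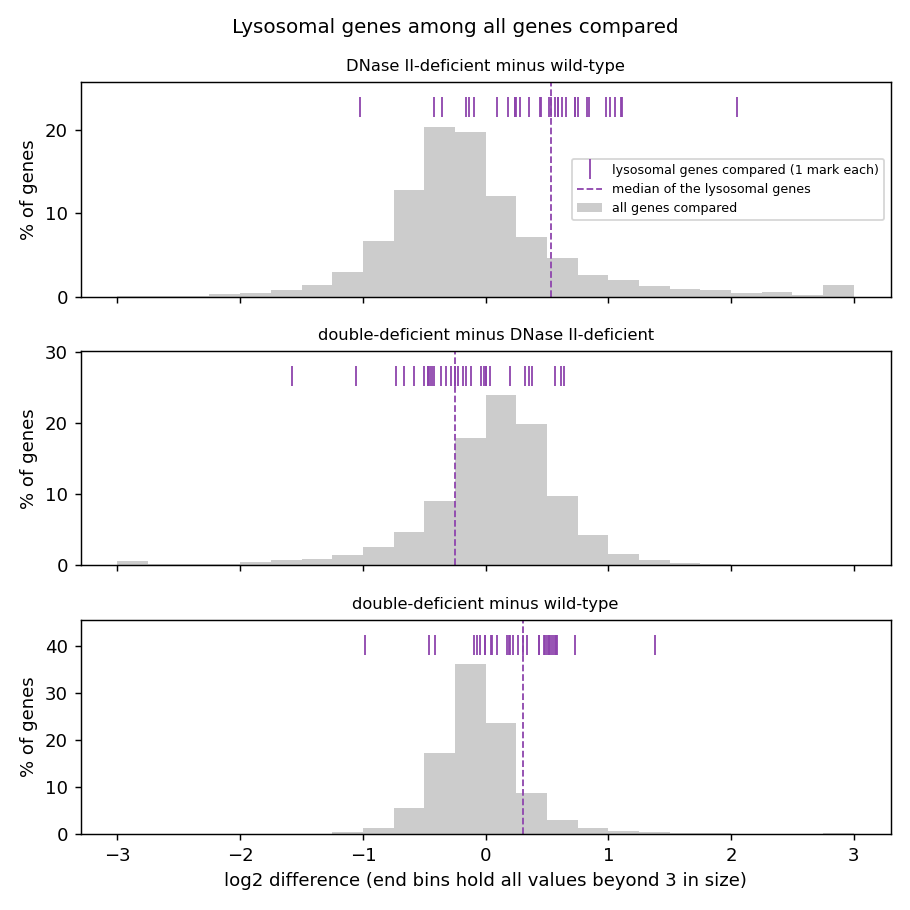
Share of all genes compared (grey bars, %) by log2 difference in bins of 0.25, in 3 panels for the 3 comparisons, with 1 purple mark for each of the 33 lysosomal genes compared and their median as a dashed line. The dashed line lies at 0.53, -0.25 and 0.31, while the medians of all genes compared are -0.21, 0.11 and -0.08.

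How the arrays are scaled matters for the size of these differences. In DNase II-deficient minus wild-type, the median of all genes was -0.21 as deposited, and -0.07, -0.07 and 0.02 after quantile, 75th percentile and loess scaling. The median of the lysosomal genes less that of all genes was 0.74, 0.67, 0.74 and 0.69 in the same order. Among calls at 2-fold, higher genes made up 55.4% over the whole array as deposited, and 65.8%, 67.1% and 74.0% after those scalings. The lysosomal genes went from 5 higher and 1 lower to 6, 6 and 9 higher and 0 lower. In double-deficient minus DNase II-deficient the higher share of calls over the array was 39.0% as deposited and 25.2% after loess, with 0 lysosomal genes higher and 2 lower under both.

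Further genes of the lysosomal system were taken from lists drawn up by function. Their counts in the first comparison are to be read against all genes compared. Of those, 34.3% were higher by any amount, 7.67% were higher by 2-fold or more and 6.17% lower by as much, and their median was -0.21. Of 11 other lysosomal hydrolases compared, 2 were at least 2-fold higher and 2 lower in the DNase II-deficient-labelled array than in wild-type, with a median log2 difference of 0.19. Ctss, the cathepsin that processes the MHC class II invariant chain, read 18.6, 75.3 and 42.6, an order like that of Ctsc. Lyz2, the lysozyme of myeloid cells, read 24.6, 52.2 and 47.8. Ctse, an aspartic protease gene, was low in the DNase II-deficient-labelled array alone, at 50.4, 12.6 and 55.0. Ctsf, a cysteine protease gene, was lowest there too, at 7.52, 1.88 and 5.42. In the double-deficient array it was 1.39-fold lower than wild-type.

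Of 12 helper and further membrane protein genes, 11 were higher by any amount in that comparison and 3 at least 2-fold. Gpnmb, a glycoprotein of lipid-laden macrophages, was below the floor in wild-type, at 0.034, and read 2.24 and 1.67 in the mutants, at least 13.8-fold and 10.3-fold higher. Gm2a, the activator protein that presents GM2 to the enzyme encoded by Hexa, was dim at 0.294, 0.974 and 0.403. Slc11a1, the metal transporter of phagosomes, read 1.39, 2.89 and 2.46.

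The proton pump that acidifies lysosomes leaned the same way as the listed genes, with smaller differences. Of 14 V-ATPase genes compared, 10 (71.4%) were higher and 4 lower by any amount in the DNase II-deficient-labelled array than in wild-type, with a median of 0.11. Between the mutants, 11 of the 14 were lower in the double-deficient array, against 39.1% of all genes, with a median of -0.13 against 0.11. Single subunit genes differed in opposite directions: Tcirg1, used by osteoclasts and macrophages, read 4.57, 12.6 and 8.09, and Atp6v0a1 read 4.46, 2.15 and 3.77. Of the 11 mannose 6-phosphate and sorting genes, 6 were higher and 5 lower by any amount in the first comparison, with a median of 0.02. None reached 2-fold in any of the 3 comparisons, a count near the background in a list of this size.

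Among cathepsin inhibitors, 2 of 6 were at least 2-fold higher than wild-type in both mutant arrays. Over all genes compared, 7.67% were so in the DNase II-deficient-labelled array and 2.05% in the double-deficient array. Serpinb1a, an inhibitor of neutrophil serine proteases, read 14.1, 69.0 and 35.8, and Stfa3, a stefin, read 24.2, 69.5 and 66.1. The median over the 6 was 0.76 in the first comparison. Of 13 regulators of lysosome formation and autophagy, 6 were higher and 7 lower by any amount in the first comparison, with a median of -0.05. None reached 2-fold in any comparison, which again is near the background. Tfeb read 0.955, 0.966 and 1.12, and its relatives Tfe3 and Mitf read 0.463, 0.450 and 0.467, and 2.07, 1.83 and 1.49. The messenger RNA of these factors does not report the activity of their proteins.

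**Figure D4:**
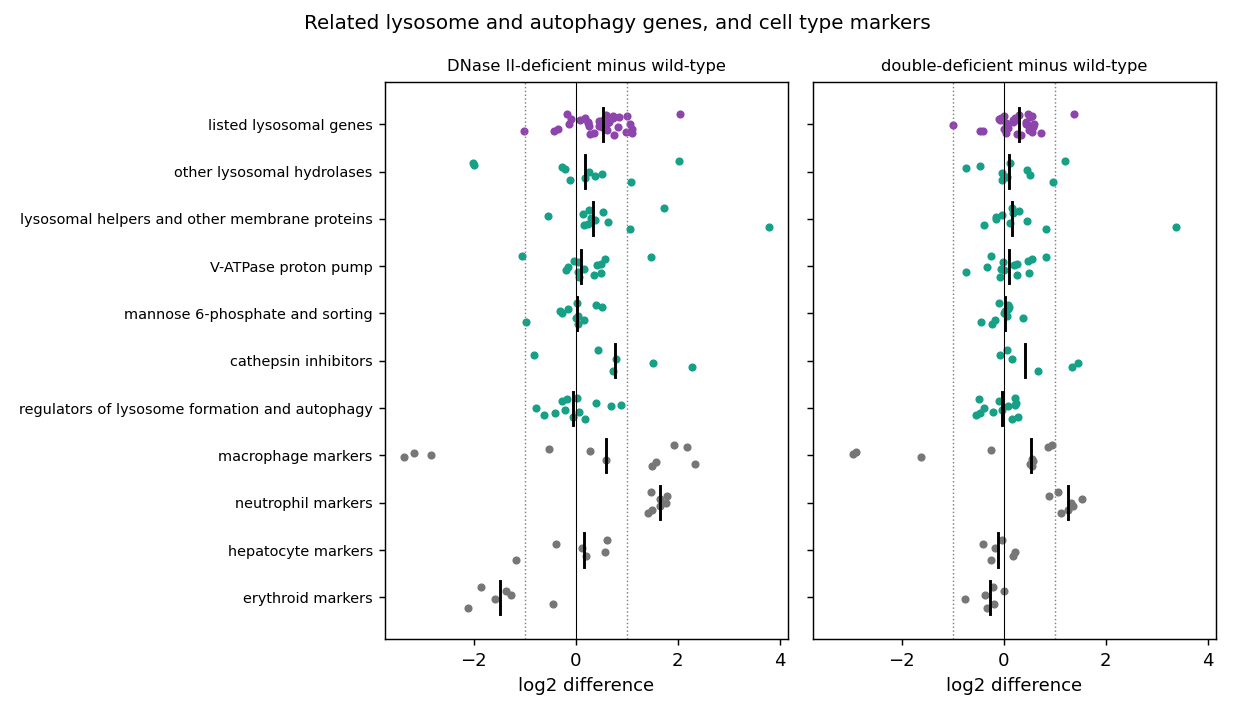
Log2 difference of each gene compared (dots) and the list median (black bars) for the listed lysosomal genes (purple), related lysosome and autophagy lists (green) and cell type markers (grey), for each mutant against wild-type. Neutrophil markers lie furthest to the right, with medians of 1.64 and 1.26, and the regulators of lysosome formation and autophagy centre at -0.05 and -0.03.

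Markers of cells rich in lysosomes also differed between the arrays, and their part in the results above was not tested. Of 11 macrophage markers compared between the DNase II-deficient-labelled array and wild-type, 5 were at least 2-fold higher (Cd14, Itgam, Aif1, Fcgr1 and Mpeg1). Over all genes compared, 7.67% were at least 2-fold higher. Cd5l, Clec4f and Marco, genes of resident macrophages, were at least 2-fold lower, where 6.17% of all genes were. Other genes of such macrophages were mixed. Spic, at 2.88, 4.36 and 4.21, and Vcam1, at 12.4, 15.1 and 10.5, did not follow. Mrc1, at 3.98, 2.78 and 7.24, was lower than wild-type in the DNase II-deficient-labelled array by less than 2-fold. So was Cd163, at 0.710, 0.460 and 0.587, which lay under the median of every array and was not compared. By any amount 7 of the 11 were higher and 4 lower, against 34.3% and 65.7% of all genes. Their median log2 difference was 0.60. The summed level of the 13 measured macrophage markers was 112, 95.2 and 68.4. A sum added after the values were seen left out Marco and Cd5l, the brightest of these genes in wild-type. It was 40.2, 87.8 and 50.8, so the order of the arrays turns on Marco and Cd5l. Leaving out genes picked for a high wild-type value lowers the wild-type sum by construction. None of the 13 was at the floor in all 3 arrays. Adgre1, the F4/80 antigen of macrophages, was dim and level at 0.269, 0.282 and 0.271. Marco read 41.1, 3.98 and 13.5, and Cd5l read 30.6, 3.41 and 4.10.

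Neutrophil markers were higher in both mutant arrays. All 7 compared were at least 2-fold higher than wild-type in the DNase II-deficient-labelled array, and 6 of 7 in the double-deficient array. Over all genes compared those shares were 7.67% and 2.05%. Summed levels were 269, 766 and 615 over the 8 neutrophil markers measured. Elane, a granule protease that the enzyme encoded by Ctsc activates, read 21.9, 60.5 and 45.8. Erythroid markers were lower in the DNase II-deficient-labelled array, 5 of 6 by at least 2-fold, where 6.17% of all genes were. They summed to 343, 104 and 257. Hepatocyte markers summed to 2407, 2591 and 2231. Of 6, 1, Serpina1a, was at least 2-fold lower in the DNase II-deficient-labelled array, where 6.17% of all genes were. Afp (582.5, 885 and 568) and Ttr had the order of the sum. Apoa1 (577, 439 and 434) and Serpina1a were highest in wild-type, and Trf and Fgb were lowest there. Summed levels of megakaryocyte markers were 227, 164 and 159, of endothelial markers 34.6, 23.1 and 30.8 and of mesenchymal markers 80.3, 124 and 91.1. Ppbp, Stab2 and Col3a1 in turn made up most of these sums in wild-type. Ppbp read 158, 96.1 and 99.9. Pf4 (54.6, 53.4 and 47.2) and Gp9 (11.9, 10.9 and 10.6) differed less. Itga2b (2.42, 3.33 and 1.66) was highest in the DNase II-deficient-labelled array. Col3a1 (76.0, 118 and 84.5) and Lrat (0.360, 1.65 and 0.477) were highest in that array too. Col1a1 (3.18, 3.98 and 5.02) and Des were highest in the double-deficient array. The other endothelial markers did not follow Stab2, which read 23.0, 10.2 and 22.1. Pecam1 read 0.775, 2.01 and 0.925, Kdr 10.6, 10.8 and 7.56, and the dim Cdh5 0.176, 0.184 and 0.198. The 3 mast cell and basophil markers summed to 13.6, 15.8 and 14.9, and Kit made up most of the sum in wild-type. Only Kit (9.13, 13.0 and 8.85) was highest in the DNase II-deficient-labelled array. Cpa3 (2.35, 1.43 and 2.98) and Mcpt8 (2.14, 1.32 and 3.07) were lowest there. No marker of these lists was at the floor in all 3 arrays.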

How the data were processed

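Fetal liver RNA was hybridised to 3 CodeLink arrays, 1 per genotype. Poly(A) RNA was amplified with a biotin label, stained with Cy5-streptavidin and quantified with CodeLink System Software, per the labels' protocols. Its version and background method are not stated in the labels. The authors deposited linear normalised intensity, of which 267, 224 and 253 values were at or below 0. A shared scale hides differences in total RNA. Arrays have no depth, and precision is limited by their number.

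Values in every array existed for 20164 of 20289 probes, and 15120 had 1 gene symbol in the platform annotation, which can be old (38 had several and 5131 none). Entrez identifiers of 15064 probes matched the reference table. A gene with several probes was read from the one with the highest mean level on the log2 scale. Values under the array's 25th percentile were set to it (the floor) before taking log2. A gene was compared if either array put it over that array's median, and was counted at 2-fold. Folds from a floored value are lower bounds. No test was run. All listed genes with values are named. Genes of related lists are named where 2-fold different in a comparison, up to 6 a list, plus Tfeb, Tfe3 and Mitf. Marker genes to name were picked with their values in view. The listed genes and all lists were chosen with earlier results of these data known.

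Alternatives changed the scaling, floor, filter and probe choice. The 2-fold calls were tested on simulated arrays with planted differences wider than 2-fold. That does not bear on smaller differences, on the scalings or on the promoter search. Tools were Python 3.11.15, pandas 2.3.3, numpy 2.4.6 and, for cyclic loess, limma 3.58.1 in R 4.3.3.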

Additional observations from a re-analysis of the deposited data

How the results depend on the processing

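The median difference of the lysosomal genes stayed within 0.2 on the log2 scale of the value as deposited under every alternative run, in all 3 comparisons, and none of the genes called at 2-fold changed direction. Counts moved by over 1.5 times as follows, and the cause was not tested beyond what fewer or more genes compared implies. In DNase II-deficient minus wild-type, 9 lysosomal genes were at least 2-fold higher after cyclic loess and 0 were lower after quantile, 75th percentile and loess scaling, against 5 and 1. Over all genes, 288 were lower after loess, and 310 were higher and 321 lower with the filter at the 75th percentile, against 643 and 517. In double-deficient minus DNase II-deficient, 1 lysosomal gene was lower with the floor at the array median or the filter at the 75th percentile, against 2. Over all genes, 171 were higher after loess, and 158 higher and 192 lower with that filter, against 258 and 403. In double-deficient minus wild-type, quantile normalisation gave 1 lysosomal gene lower, against 0. Over all genes, 259 were higher and 97 lower without a level filter, and 67 and 25 with the filter at the 75th percentile, against 167 and 60. At 1.5-fold, chosen after seeing the data, 15, 2 and 2 lysosomal genes were higher and 1, 4 and 1 lower in the 3 comparisons. Signal near the floor limits Ids, Ctsk, Sgsh, Neu1 and Idua. No paired analysis was possible because each genotype has 1 array, and no replicate could be left out.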
